A study of Homo sapiens with 34 samples.

Results

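The SOX2 sites described here are those still called in GSI-resistant MB157R cells after the NOTCH1 intracellular domain had been induced. They were chosen by the deposited peak list of that immunoprecipitation and comprise all of its peaks on chromosomes 1 to 22 and X, 323 of 335. In the 8 peak lists of the series there were 290228 peaks on these chromosomes. MB157 is a NOTCH-driven triple-negative breast cancer line, and MB157R was derived from it by 25 weeks of exposure to 1 µM of a γ-secretase inhibitor (GSI). In the MB157R iN1-ICD group a lentiviral, doxycycline-inducible vector encoded HA-tagged NOTCH1 without its extracellular part, and in the MB157R iEV group the vector was empty. The parental groups were MB157 iSOX2, in which the vector encoded HA-tagged SOX2, and MB157 iEV. All groups received 1 µg/ml doxycycline for 72 h. Chromatin immunoprecipitation and sequencing (ChIP-seq) was done for SOX2 and RBPJ in both MB157R groups, for HA and RBPJ in MB157 iSOX2, and for RBPJ and HA in MB157 iEV. Each group had 3 libraries except the HA immunoprecipitation of MB157 iEV, which had 1. It serves as an HA control because the vector of these cells encoded no HA-tagged SOX2 or NOTCH1. The authors called peaks once per group on pooled libraries, so no spread between replicates exists and no difference below was tested between conditions. Shares have exact binomial 95% intervals, which cover counting error only. Whether the intervals of a pair of shares overlap is given as a description, and overlap does not show that the shares are equal.

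The HMG box factor SOX2 bends the DNA it binds and is best known for its role in pluripotent cells. RBPJ is the DNA-binding protein of the NOTCH pathway: it holds corepressors at its sites in the absence of a signal and, once a receptor has been cleaved, is joined there by the NOTCH intracellular domain and coactivators. A GSI prevents that cleavage. The question put to the 323 sites was what remained of SOX2 binding under induced NOTCH1-ICD, where those sites lie and what else binds there. The amount of SOX2 protein and its transcripts were not part of these files, so less SOX2 in the cell and weaker binding per molecule cannot be told apart here.

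The sequences under several of the strongest sites are given here, most of them picked for holding a SOX motif. They are printed for the forward strand of hg38 around the summit, the position of highest signal, leaving out bases in annotated exons. Capitals mark the SOX motif, ACAATG or ACAAAG on either strand.
MTF2 promoter, chr1:93079043-93079234: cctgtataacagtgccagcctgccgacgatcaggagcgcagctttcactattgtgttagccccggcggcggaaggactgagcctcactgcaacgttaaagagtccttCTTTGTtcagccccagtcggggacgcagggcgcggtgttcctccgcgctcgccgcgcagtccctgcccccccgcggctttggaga
SOX6 intron 13, chr11:16002055-16002255: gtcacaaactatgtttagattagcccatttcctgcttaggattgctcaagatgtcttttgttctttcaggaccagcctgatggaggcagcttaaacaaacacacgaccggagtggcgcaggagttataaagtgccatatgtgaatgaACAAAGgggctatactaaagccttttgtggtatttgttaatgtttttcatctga
TEAD1 intron 3, chr11:12843026-12843226: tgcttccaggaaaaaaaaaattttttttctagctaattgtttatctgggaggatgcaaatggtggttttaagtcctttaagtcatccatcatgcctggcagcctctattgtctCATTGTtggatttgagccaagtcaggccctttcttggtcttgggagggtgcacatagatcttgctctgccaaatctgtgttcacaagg
TMCC2 downstream, chr1:205284726-205284926: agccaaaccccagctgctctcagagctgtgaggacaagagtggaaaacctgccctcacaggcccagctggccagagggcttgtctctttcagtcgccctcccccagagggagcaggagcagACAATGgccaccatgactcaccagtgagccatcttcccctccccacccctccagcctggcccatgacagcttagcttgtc
The middle of the motif lay 9.5 bp from the summit at MTF2, 15.5 bp at TEAD1, 23.5 bp at TMCC2 and 49.5 bp at SOX6. The TMCC2 window also holds 1 copy of TGACTCA, the core that AP-1 factors bind. The strongest site without a SOX motif lay near FTSJ1, and the capitals in its window mark the other strand of GTGAGAA, a form of the RBPJ motif.
FTSJ1 downstream, chrX:48487553-48487753: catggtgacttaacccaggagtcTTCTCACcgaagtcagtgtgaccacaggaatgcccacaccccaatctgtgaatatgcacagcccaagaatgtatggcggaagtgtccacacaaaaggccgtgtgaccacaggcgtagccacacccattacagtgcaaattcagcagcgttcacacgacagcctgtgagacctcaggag

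The 323 sites differed in strength and in kind. Fold, the enrichment at the summit over the local background as the peak caller gave it, had a median of 5.12 and ran between 1.20 and 14.5, and a site held a median of 21 fragments at its summit. The iEV SOX2 list of the same cells had a median fold of 5.32 over 37963 peaks and a maximum of 62.9, and the background expected at any position was 1.74 fragments in iN1-ICD and 1.96 in iEV. The lowest deposited −log10 q values, those of 3 sites, were 1.30, 1.36 and 1.39, just above the authors' limit of q = 0.05. They lay on chromosomes 1, 17 and 5, at least 744.9 kb from the nearest protein-coding gene start.

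Background was uneven, and this divided the sites. The local background was at least 5 times the genome background of the list at 74 of the 323 sites (22.9%, 18.4 to 27.9), against 350 of 37963 iEV SOX2 peaks (0.922%). The bases within 100 bp of the summit occurred at least 2 times in hg38, by the median count of their 31-letter words, at 68 sites (21.1%, 16.7 to 25.9), against 2.84% of iEV SOX2 peaks. Near the HA control, that is with a summit less than 500 bp from one of its 77, lay 23 sites (7.12%, 4.57 to 10.5), against 0.142% of iEV SOX2 peaks. These properties gave 4 classes, defined after the values had been seen. HA control sites numbered 23, repeated sites 49, single copy sites with a background of at least 5 times the genome value (high background) 25, and the other single copy sites 226 (69.97%).

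**Figure D1:**
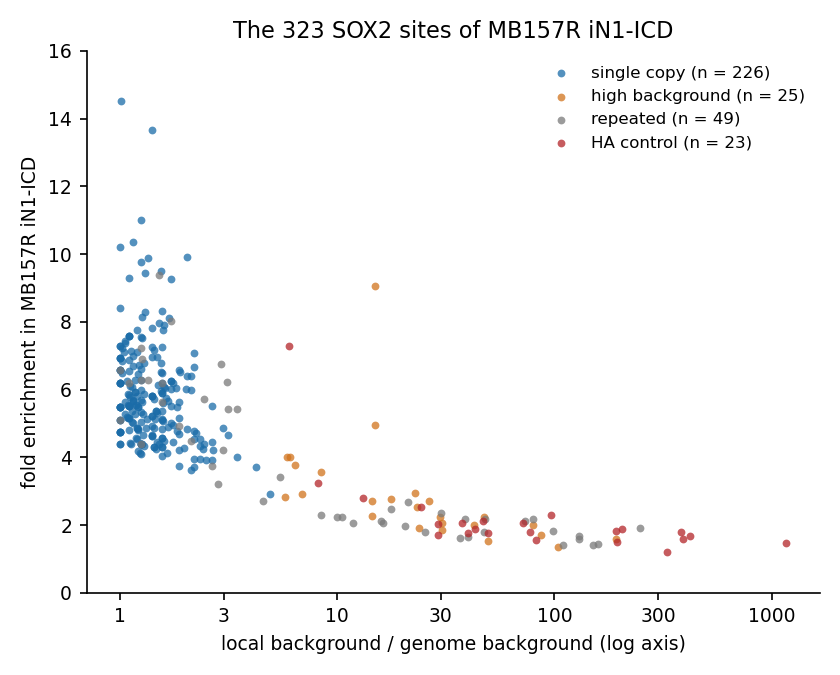
Fold enrichment of each of the 323 SOX2 sites of MB157R iN1-ICD (vertical axis, linear) against its local background divided by the genome background of the list (horizontal axis, log scale), 1 point per site, coloured by class. The 226 single copy sites sit at backgrounds below 5 and folds of 2.93 to 14.5, while most HA control and high background sites sit below fold 4, and repeated sites are found at low and high backgrounds.

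The 23 HA control sites and the 49 repeated sites lay in gene-poor DNA. The nearest protein-coding transcription start site (TSS) was at a median of 713086 bp for the HA control sites and 984397 bp for the repeated ones, against 33547 bp for the 226 single copy sites. HA control sites had a median background of 71.9 times the genome value, 226 fragments at the summit and a fold of only 1.82. The strongest of them lay on chromosome 17 (25353002 to 25353494), with a fold of 7.28 in iN1-ICD, 10.3 in iEV and 4.75 in the HA control. A further 10 lay on chromosome 1, among them 143202147 to 143202439 with a fold of 2.81 in iN1-ICD, 5.40 in iEV and 3.51 in the HA control. Of the repeated sites 11 lay on chromosome 13, and their median copy count was 48 to 2233. An example is 16335681 to 16335865, with 2170 copies, where fold was 7.24 in iN1-ICD and 5.25 in iEV.

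At HA control and repeated sites fold lay on both sides of that in iEV, whereas at single copy sites with a partner it was lower in iN1-ICD throughout. Of the 323 sites 302 (93.5%, 90.2 to 95.9) had an iEV SOX2 summit less than 500 bp away, at a median of 22 bp, so most were also called without NOTCH1-ICD. Of the 225 single copy sites with an iEV partner, 225 had the lower fold in iN1-ICD, and at 207 of them it was below 0.5 times the iEV fold. Their median fold was 5.53 in iN1-ICD and 20.7 in iEV, and the median of the ratio was 0.281, between 0.110 and 0.878. Among high background sites 18 of 20 were lower, with a median ratio of 0.295. Of the 34 repeated sites with a partner, 22 were higher in iN1-ICD and 12 lower, with a median ratio of 1.07. Of the 23 HA control sites 10 were higher and 13 lower, with a median ratio of 0.985. The rule chose the sites on the iN1-ICD signal, so these ratios describe the list and were not tested.

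**Figure D2:**
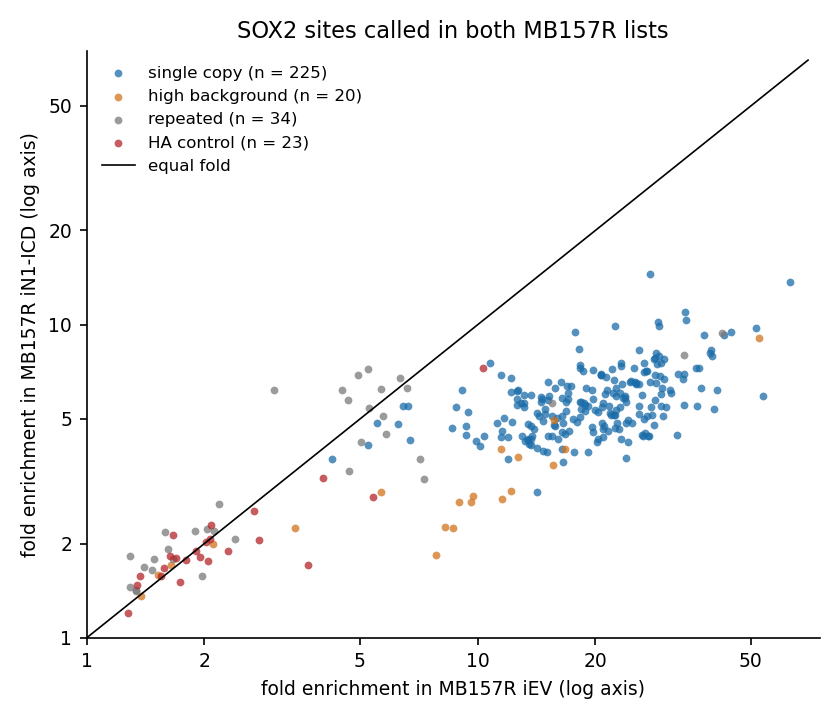
Fold enrichment in MB157R iN1-ICD (vertical) against MB157R iEV (horizontal) for the 302 sites with an iEV SOX2 summit less than 500 bp away, on log axes, 1 point per site, coloured by class. All 225 single copy sites lie below the line of equal fold, while most of the 34 repeated and 23 HA control sites scatter along it.

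Only 21 sites had no iEV summit within 500 bp, and 3 of those were still overlapped by an iEV peak. By class 15 were repeated, 5 had a high background and 1 was single copy. The single copy one lay on chromosome 21 (9013927 to 9014163), 1508 kb from the TSS of TPTE, with 15 fragments and a fold of 4.65. The strongest lay in repeated DNA on chromosome 9 (43874057 to 43874378), with a fold of 6.57 and 567 copies, and on chromosome 13 (16981745 to 16982036), with a fold of 6.29 and 1252 copies. The 3 that an iEV peak overlapped lay 71.1 to 145.2 kb downstream of SOX4, in the stretch of chromosome 6 described below. No single copy site within 50 kb of a protein-coding TSS was called in iN1-ICD and not in iEV.

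The remaining single copy sites were for the most part the strongest SOX2 sites of iEV cells. Ranked by fold among all 37963 iEV peaks, their partners had a median rank of 399, and 154 of 225 (68.4%) were among the first 1000. The median rank was 30848.5 for repeated sites and 37919 for HA control sites. Over all iEV SOX2 peaks 302 (0.796%) were called again. For single copy iEV peaks the share was 0.00625% at a fold under 5 (1 of 16009), 0.0804% at 5 to 10 (13 of 16165), 1.39% at 10 to 15 (43 of 3089) and 5.99% at 15 to 20 (51 of 852). It was 22.5% (18.5 to 26.9) at 20 to 30 (91 of 405) and 44.6% (31.3 to 58.5) at 30 and more (25 of 56). Over all iEV peaks, by contrast, 0.285% were called again at a fold under 5. All but 1 of those 48 peaks were repeated, of high background or near the HA control. Since a strong site has more signal to lose before it drops out of a list, its chance of being called depended on fold, and nothing is read from the rise itself.

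**Figure D3:**
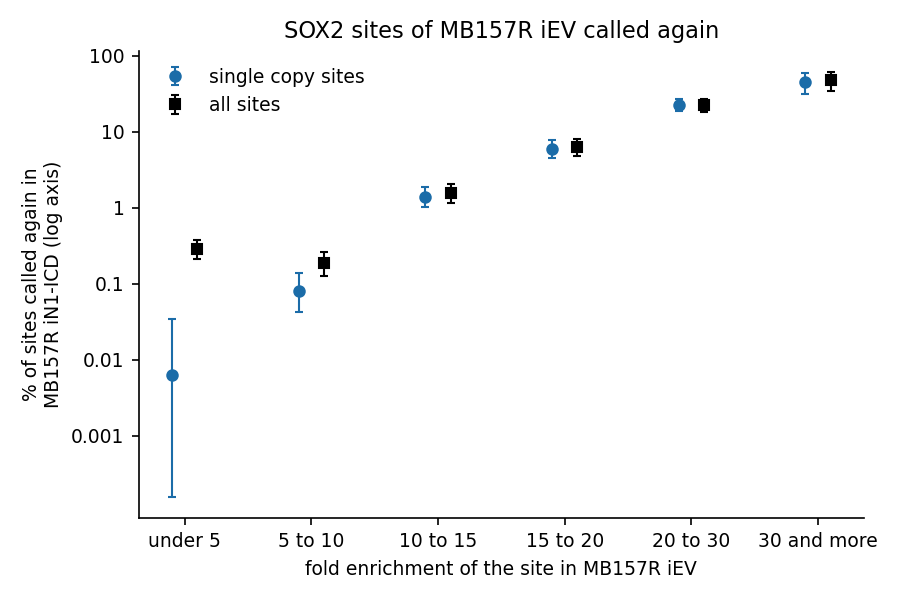
Share of MB157R iEV SOX2 peaks called again in MB157R iN1-ICD (vertical axis, %, log scale) by the fold of the peak in iEV (horizontal axis), for single copy peaks (circles) and all peaks (squares), with exact binomial 95% intervals. Single copy shares are 0.00625% under a fold of 5 and 44.6% at 30 and more, and the intervals of both sets overlap from a fold of 5 upward.

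The site of highest fold lay in intron 1 of TTBK2, a kinase that starts the growth of primary cilia. Its fold was 14.5 with 39 fragments in iN1-ICD and 27.5 with 132 fragments in iEV, where it ranked only 108. No RBPJ list and no HA-SOX2 summit was near it. The second was the promoter of MTF2, an accessory subunit of Polycomb repressive complex 2 (chromosome 1, 93079020 to 93079287), with its summit 0.092 kb upstream of the TSS. Fold there was 13.7 with 46 fragments in iN1-ICD and 62.9 with 284 fragments in iEV, the highest fold of the whole iEV list. HA-SOX2 reached 36.5 at the same place in MB157 iSOX2, and RBPJ was called in all 4 groups, with a fold of 6.09 in MB157R iN1-ICD and 14.3 in MB157R iEV. The pair differs in what else was called: the MTF2 promoter had a peak of SOX2, HA-SOX2 and all 4 RBPJ lists, and the TTBK2 intron had peaks of the SOX2 lists alone.

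Next followed a site 11.5 kb downstream of the TSS of FTSJ1, a tRNA methyltransferase (chromosome X, 48487537 to 48487782), with a fold of 11.0 in iN1-ICD and 34.0 in iEV. RBPJ there had a fold of 28.3 in iN1-ICD and 15.5 in iEV. A site in intron 13 of SOX6, another SOX family transcription factor (chromosome 11, 16002009 to 16002285), had a fold of 10.4 in iN1-ICD, 34.2 in iEV and 154 for HA-SOX2. Fold was 10.2 in iN1-ICD and 28.9 in iEV at the site 27.6 kb downstream of the TSS of TMCC2 (chromosome 1, 205284699 to 205284977). A further site (chromosome 11, 69497275 to 69497571) was 144 kb upstream of the cyclin D1 gene, CCND1. It had a fold of 9.92 in iN1-ICD and 29.2 in iEV, and RBPJ was called there in all 4 groups, at 18.6 in MB157R iN1-ICD and 14.6 in MB157R iEV. In intron 3 of TEAD1, the DNA-binding partner of YAP and TAZ (chromosome 11, 12843040 to 12843238), fold was 9.76 in iN1-ICD and 51.4 in iEV. CTNNA2, which encodes the neural α-catenin, had a site in intron 7 with a fold of 9.88 in iN1-ICD and 22.5 in iEV, and NFKBIZ, an inhibitor-like regulator of NF-κB, had one 71.2 kb downstream of its TSS with 9.45 in iN1-ICD and 17.8 in iEV. In intron 3 of LRRC8A, a subunit of the volume-regulated anion channel, fold was 9.49 in iN1-ICD and 44.5 in iEV. The rest of the 20 strongest had folds of 8.01 to 9.39. Their nearest protein-coding TSS was that of PLPP2, CEP41, CDKAL1, FAM227A or ZSCAN2, at 3.2 kb or less, or a more distant one. The distant ones were SDK1 (56.7 kb), SPRY2 (63.0 kb), CNTNAP3 (208.4 kb), SPATA31A6 (247.6 kb) and LPIN1 (368.6 kb). All 20 had a higher fold in iEV than in iN1-ICD, and 17 of the 20 were single copy.

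The ratio of iN1-ICD to iEV fold differed between sites. The lowest ratio among single copy sites was that of a site 2.55 kb upstream of VWCE (chromosome 11, 61297731 to 61297931), with a fold of 5.91 in iN1-ICD and 53.8 in iEV, the second highest there. At a site 124.4 kb from KCNJ2, a potassium channel gene, fold was 5.37 in iN1-ICD and 40.2 in iEV, and 18.6 kb downstream of SPRY1, a feedback inhibitor of receptor tyrosine kinase signaling, it was 6.20 in iN1-ICD and 40.9 in iEV. At the SPRY1 site HA-SOX2 had a fold of 184. At the other end were sites that were weak in both lists, such as those near ALOX5AP (4.86 in iN1-ICD, 5.54 in iEV), VGLL4 (3.71 in iN1-ICD, 4.23 in iEV) and RAB11FIP4 (5.51 in iN1-ICD, 6.46 in iEV). For sites with an iEV fold of at least 20 the median ratio was 0.230 (n = 116), and for weaker ones 0.357 (n = 109). The split uses the denominator of the ratio, and every site had to reach the calling limit in iN1-ICD, so nothing is read from this difference. By neighbour, the median ratio was 0.275 with an RBPJ summit of iN1-ICD nearby (n = 191) and 0.321 without (n = 34). It was 0.266 with HA-SOX2 nearby (n = 139) and 0.296 without (n = 86), and 0.278 with a SOX motif (n = 157) and 0.304 without (n = 68). The median iN1-ICD fold was 5.53 both with and without RBPJ nearby. Sites that fell below the calling limit are absent, so these ratios cannot show whether neighbours made a difference.

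Promoters held a small part of the sites. Of the 323 sites 21 (6.50%, 4.07 to 9.77) lay within 1 kb of a protein-coding TSS, against 14.9% of all iEV SOX2 peaks. That share depended on the fold of the iEV peak: among iEV peaks not called again it was 21.5% under a fold of 5, 10.4% at 5 to 10, 7.15% at 10 to 15 and 5.68% at 20 to 30. Among single copy iEV peaks of fold 20 and more it was 11.2% (6.10 to 18.4) of those called again and 5.797% (3.58 to 8.81) of those not, with overlapping intervals, and a lower share was thus not found at like fold. By position 192 sites were intergenic, 88 in introns of protein-coding genes and 35 in introns of long noncoding RNAs. Besides MTF2, the promoters of highest fold were those of PLPP2, a lipid phosphatase (9.30 in iN1-ICD, 42.7 in iEV), CEP41, a centrosomal protein (9.27 in iN1-ICD, 38.0 in iEV), FAM227A (8.39 in iN1-ICD, 18.2 in iEV) and ZSCAN2, a zinc finger protein (8.28 in iN1-ICD, 25.8 in iEV). PTMA, which encodes prothymosin α, had 7.83 in iN1-ICD and 28.5 in iEV. HMGB1, an abundant chromatin protein, had 7.11 in iN1-ICD and 26.9 in iEV. Fold at ADAM28, a membrane metalloprotease, was 7.56 in iN1-ICD and 23.2 in iEV. IFRD1, VASH2, MAP3K9, BNC2, CLCF1, ISL2, CCDC159, C15orf62 and SETD5 followed at folds of 4.00 to 6.57 in iN1-ICD, each lower than in iEV.

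Transcriptional regulators and a keratin were among these promoters. WWTR1 encodes TAZ, a coactivator of the Hippo pathway, and had 5.82 in iN1-ICD and 23.8 in iEV. HOXA9, a homeobox gene, had 6.48 in iN1-ICD and 25.4 in iEV. At ELF3, an epithelial ETS factor, fold was 4.81 in iN1-ICD and 6.24 in iEV, while RBPJ had 8.98 in MB157R iN1-ICD and 13.6 in MB157R iEV. The iEV SOX2 summit lay 454 bp from that of iN1-ICD, and the RBPJ summits 305 and 293 bp from it. These folds may therefore belong to different positions. KRT15, a basal keratin, had 3.95 in iN1-ICD and 14.7 in iEV, and the same site lay 3.47 kb from the TSS of KRT19. RBPJ was called at KRT15 and ELF3 in all 4 groups.

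Gene lists of the pathways concerned held few of the sites. Within 50 kb of a site lay the TSS of 255 of 19618 protein-coding genes (1.30%), and 74.9% of genes had an iEV SOX2 peak at that distance. None of 24 genes for NOTCH receptors, ligands and modulators and none of 11 HES and HEY genes, the repressors that NOTCH induces, had a site, although 23 and 9 of them had an iEV SOX2 peak. In the 76 genes of the study's NOTCH signature found in the annotation there was 1, ZNF750, a factor of epidermal differentiation (49.5 kb; fold 6.51 in iN1-ICD, 25.4 in iEV). None of 23 genes of epithelial-mesenchymal transition, 18 of stem cells and pluripotency and 13 of the AP-1 family had one. Of 19 SOX family genes 2 had a site: SOX13, at 15.6 kb, with a fold of 4.03 in iN1-ICD and 14.2 in iEV, and SOX4. SPRY1 was the 1 among 14 feedback inhibitors of receptor tyrosine kinases, KRT19 the 1 among 21 epithelial and basal mammary genes and MTF2 the 1 among 12 genes of Polycomb repressive complex 2. At such counts of 0 to 2 a list cannot be told from all genes at 1.30%.

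Near MYC, the proto-oncogene on chromosome 8 that NOTCH activates in many tumors, SOX2 remained at distal positions. In PVT1, 170 kb downstream of MYC, a site (127907905 to 127908104) had a fold of 3.63 in iN1-ICD and 16.5 in iEV. Upstream, in the noncoding genes PCAT1 and CASC8, 3 sites had folds of 7.07, 4.396 and 6.39 in iN1-ICD and 26.6, 27.2 and 17.3 in iEV. RBPJ was called at each of those 4 sites in both MB157R groups, as it was near 176 of all 226 single copy sites (77.9%). Nothing particular to MYC is therefore read from it.

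Of the 25 high background sites, 18 lay in 2 stretches of the genome. On chromosome 6, 12 of them lay between 20543156 and 22036492, a stretch of 1.49 Mb with CDKAL1, SOX4 and the noncoding CASC15, at backgrounds of 14.4 to 30.5 times the genome value. RBPJ peaks there had a median background of 18.0 in MB157R iN1-ICD and 19.3 in MB157R iEV, against 1.28 in MB157 iSOX2 and 1.32 in MB157 iEV. The raised background was thus found in both MB157R groups and in neither MB157 group. Copy number was not measured, and its part in these sites was not tested. The strongest site of the stretch was in intron 2 of CDKAL1, a tRNA-modifying enzyme, with 242 fragments and a fold of 9.05 in iN1-ICD, 52.4 in iEV and 98.9 for HA-SOX2 in MB157 iSOX2, whose background was not raised. The site 21.95 kb downstream of SOX4, a SOXC factor, had 119 fragments and a fold of 2.95 in iN1-ICD and 12.2 in iEV. On chromosome 3, between 9422933 and 13857963, the median background of RBPJ peaks was 5.72 in MB157R iN1-ICD and 5.47 in MB157R iEV, against 1.99 in MB157 iSOX2 and 1.95 in MB157 iEV. There 6 high background sites lay at SETD5, IRAK2, IQSEC1 and WNT7A.

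RBPJ peaks of MB157R cells lay near most of the 323 sites. An RBPJ summit of MB157R iN1-ICD was near 247 sites (76.5%, 71.5 to 81.0), against 44.7% of all iEV SOX2 peaks. For RBPJ of MB157R iEV it was 244 sites (75.5%, 70.5 to 80.1), against 57% of all iEV SOX2 peaks. MB157 iSOX2 RBPJ was near 106 sites (32.8%, 27.7 to 38.2), against 19.8%, and MB157 iEV RBPJ near 90 (27.9%, 23.04 to 33.1), against 15.1%. HA-SOX2 was near 174 (53.9%, 48.3 to 59.4), against 34.7%. At a distance under 100 bp RBPJ of MB157R iN1-ICD was near 43.7% (38.2 to 49.3) of the sites, against 22.5% of all iEV SOX2 peaks, and RBPJ of MB157R iEV near 44.6% (39.1 to 50.2), against 30.7%. In the 226 single copy sites these shares were 84.5%, 86.7%, 31.9% and 24.8% for RBPJ and 61.5% for HA-SOX2, and 14 (6.19%) had no RBPJ list nearby, against 34.0% of all iEV SOX2 peaks. Among single copy iEV SOX2 peaks of fold 20 and more it was 7.81% (36 of 461), so nothing is read from the low share at the sites. At 176 single copy sites both MB157R RBPJ lists had a summit nearby. The ratio of the RBPJ fold in iN1-ICD to that in iEV had a median of 0.926 there. The SOX2 ratio had a median of 0.281 over a different set, all 225 single copy sites with an iEV SOX2 partner. Sites were chosen on the SOX2 list of iN1-ICD, and an RBPJ ratio exists only where RBPJ was called in both groups. The RBPJ and SOX2 medians are therefore not compared. The lists differ in length and share their inputs within a group, so a share of one list is not set against that of another.

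Since these sites were strong in iEV, they were compared with other strong ones that were not called again. Among single copy iEV SOX2 peaks of fold 20 and more, 116 were called again in iN1-ICD and 345 were not, with a median iEV fold of 26.4 among those called again and 22.9 among those not. RBPJ of MB157R iN1-ICD was near 88.8% (81.6 to 93.9) of those called again and 67.8% (62.6 to 72.7) of those not, and RBPJ of MB157 iEV near 32.8% (24.3 to 42.1) and 15.4% (11.7 to 19.6). Both pairs of intervals lie apart. At a distance under 100 bp both pairs overlap: the shares were 50.9% (41.4 to 60.3) and 38.0% (32.8 to 43.3) for RBPJ of MB157R iN1-ICD, and 16.4% (10.2 to 24.4) and 7.83% (5.22 to 11.2) for RBPJ of MB157 iEV. At 500 bp the difference for RBPJ of iN1-ICD was seen within each bin of fold from 10 upward: 86.0% and 57.0% at 10 to 15, 80.4% and 61.2% at 15 to 20, 87.9% and 68.5% at 20 to 30, and 92.0% (74.0 to 99.02) and 61.3% (42.2 to 78.1), with overlapping intervals, at 30 and more. Intervals also overlapped for RBPJ of MB157 iSOX2, with 39.7% (30.7 to 49.2) and 25.8% (21.3 to 30.8), for RBPJ of MB157R iEV, with 93.1% (86.9 to 96.98) and 86.1% (82.0 to 89.6), and for HA-SOX2, with 69.8% (60.6 to 78.0) and 61.7% (56.4 to 66.9). In each pair with overlapping intervals the larger share was that of the peaks called again, so the overlap does not show that a difference was absent. RBPJ of MB157R iN1-ICD came from the same cells and inputs as the SOX2 list that defined called again. Its difference therefore cannot be told apart from what these lists share, and this was not tested.

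**Figure D4:**
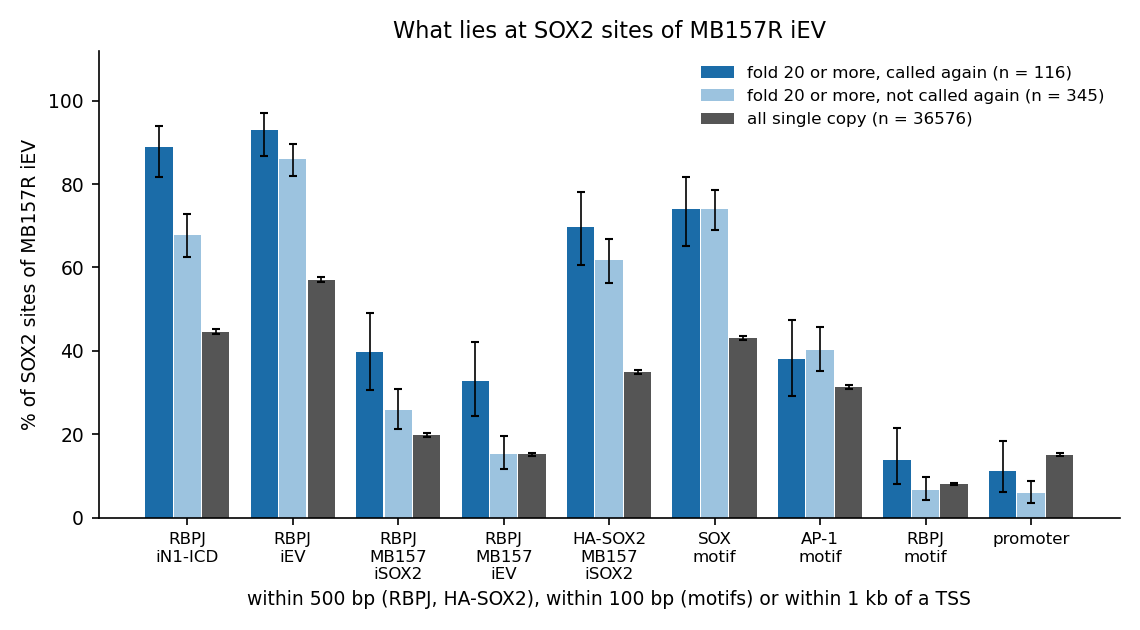
Share of single copy MB157R iEV SOX2 peaks (vertical axis, %) with a summit of another list less than 500 bp away, with a motif within 100 bp of the summit, or within 1 kb of a TSS. Bars show peaks of fold 20 and more called again in iN1-ICD (n = 116), those not called again (n = 345) and all single copy peaks (n = 36576), with exact binomial 95% intervals. RBPJ of iN1-ICD is near 88.8% of the first and 67.8% of the second, while the SOX motif is in 74.1% and 73.9%. That RBPJ list shares cells and inputs with the SOX2 list that defined called again.

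The SOX motif was common at the sites but did not set them apart from other strong SOX2 peaks. ACAATG or ACAAAG lay within 100 bp of the summit of 182 of 323 sites (56.3%, 50.7 to 61.8), against 43.1% of all iEV SOX2 windows of the same length. By class it was in 157 of 226 single copy sites (69.5%, 63.0 to 75.4), 32.0% of high background, 30.6% of repeated and 8.70% of HA control sites. In windows 1 kb to either side of single copy summits it was in 24.1%, and GTAACA or GAAACA, the same letters reversed, was in 23.5% at the summit. Among iEV peaks of fold 20 and more it was in 74.1% (65.2 to 81.8) of those called again and 73.9% (68.9 to 78.5) of those not. Within 50 bp of the summit the shares were 64.7% (55.2 to 73.3) and 64.3% (59.0 to 69.4).

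**Figure D5:**
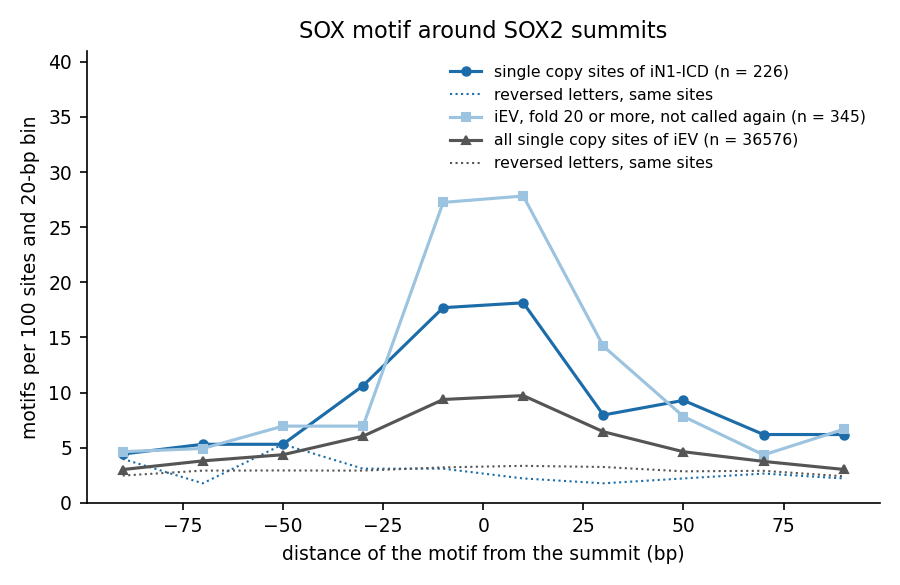
SOX motifs per 100 sites in bins of 20 bp (vertical axis) by distance from the summit (horizontal axis, bp), for the 226 single copy sites of MB157R iN1-ICD, 345 single copy iEV peaks of fold 20 and more not called again, and all 36576 single copy iEV peaks. The first set has summits from another list than the others and includes sites of lower iEV fold, so the heights of the sets are not compared. Dotted lines show the reversed letters for the first and last set. Motifs gather at the summit in each set, with 17.7 and 18.1 per 100 in the 2 central bins of the iN1-ICD sites, while the reversed letters reach at most 5.31 per 100.

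Other motifs were read on both strands in the same windows. TGACTCA, of AP-1, was in 36.7% (30.4 to 43.4) of single copy sites and 31.4% of single copy iEV peaks. It was in 39.7% of single copy iEV peaks of fold 20 and more, and in 3.98% of the windows 1 kb from single copy sites. For the RBPJ motif, GTGGGAA or GTGAGAA, the shares were 8.85% (5.49 to 13.3) and 8.04%, although an RBPJ summit was near most of these sites. RUNX letters, AACCACA, were in 11.9% of single copy sites and 11.2% of single copy iEV peaks. Among strong iEV peaks they were in 9.48% (4.83 to 16.3) of those called again and 18.8% (14.9 to 23.4) of those not, and the RBPJ motif was in 13.8% (8.09 to 21.4) and 6.67% (4.27 to 9.84). Both pairs of intervals overlap. CACGTG, an E-box that HES and HEY proteins can bind, was in 2 of 226 single copy sites (0.885%, 0.107 to 3.16) and 2.95% of single copy iEV peaks. In single copy iEV peaks of fold 20 and more the share was 0.434% (2 of 461), so nothing is read from the lower share at the sites. ACATTCC, the TEAD motif, was in 7.52% of single copy and 30.6% of repeated sites, against 6.81% of all iEV SOX2 windows. ATGCAAA, of OCT factors, was in 4.87% of single copy and 16.3% of repeated sites, against 5.07% of all iEV SOX2 windows. The intervals at repeated sites were 18.3 to 45.4 for TEAD and 7.32 to 29.7 for OCT. In windows 1 kb from repeated sites the shares were 12.2% (6.49 to 20.4) and 8.16% (3.59 to 15.5), with overlapping intervals. Repeated sites lie in multi-copy DNA and are not independent counts, so no enrichment of either motif is read from them.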

How the data were processed

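ChIP-seq for RBPJ, SOX2 and HA was measured in 22 immunoprecipitations and 12 inputs of MB157 and MB157R cells. Reads were trimmed, aligned with BWA to hg38 and called with MACS2 on pooled libraries against inputs, by the authors. The 8 deposited peak lists give a score (−log10 q times 10), a ratio (the fold at the summit over the local background) and the −log10 of p and of q, besides other fields with peak and summit positions. Read totals were not used here. From fold and −log10 p the whole number of fragments and the background at each summit were recovered (100% of peaks, 98.7% in the HA control, and 100% of 20000 simulated ones), and the smallest background of a list was its genome background.

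Other sequences than chromosomes 1 to 22 and X were left out. Summits less than 500 bp apart counted as near. The members, classes, motifs and lists were chosen with earlier results of these data known. Single copy meant a median of 1 genome copy of the 31-letter words within 100 bp of the summit, a background under 5 times the genome value and no HA control nearby. Genes came from GENCODE 44. Named are the 20 sites of highest fold away from the HA control (1 per gene), all promoter sites, up to 10 sites not called in iEV, the strongest HA control sites and all sites within 50 kb of 234 listed genes. Further sites (VWCE, KCNJ2, ALOX5AP, VGLL4, RAB11FIP4, IQSEC1, WNT7A, those in segments of raised background, those near MYC and single chromosome positions) were named after their values had been seen. Alternatives were other distances, overlap of regions, a −log10 q of at least 5, shortened lists, other windows and motif letters, and class. Scripts used pysam 0.24.0 and numba 0.67.0 for sequence, scipy 1.17.1 for intervals, pandas 2.3.3 with numpy 2.4.6 for tables and matplotlib 3.10.9 for plots, in Python 3.11.15.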

Additional observations from a re-analysis of the deposited data

How the results depend on the processing

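Of 88 values recomputed under other settings, 64 stayed within the range set for the reported value and 24 did not. That range was the 95% interval for a share, a factor of 1.5 for the count of sites and the quartiles for the median fold. The baseline at 100 bp was added after the data had been seen: RBPJ of MB157R iN1-ICD was near a larger share of the sites than of all iEV SOX2 peaks, while the intervals of strong peaks called again and not called again overlapped there. A distance of 100 bp lowered the shares near iEV SOX2 to 80.5%, HA-SOX2 to 42.4%, and RBPJ of MB157R iN1-ICD, MB157R iEV, MB157 iSOX2 and MB157 iEV to 43.7%, 44.6%, 19.2% and 17.6%; at 250 bp RBPJ of MB157R iN1-ICD was near 70.3% and RBPJ of MB157R iEV near 68.4%. With the HA-SOX2 list shortened to the length of the iEV SOX2 list, it was near 35.9% of the 323 sites, and with the RBPJ lists shortened to the shortest of them, RBPJ of MB157R iN1-ICD and iEV was near 65.02% and 63.5%. The shares of all iEV SOX2 peaks given above come from the full lists and are no baseline for these values. The SOX motif was in 40.6% within 50 bp and in 29.4% with the 7 letters AACAATG or AACAAAG, and 13% of the sites lay within 5 kb of a TSS. In the single copy class, chosen after the data had been seen, 99.6% were near iEV SOX2, 61.5% near HA-SOX2, 84.5% and 86.7% near RBPJ of MB157R iN1-ICD and iEV, and 69.5% had a SOX motif, while 0.612% of single copy iEV peaks were called again. A −log10 q of at least 5 left 200 of the 323 sites.

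No paired analysis was possible because the peaks had been called on pooled libraries, so that replicate numbers do not reach the lists. For the same reason no library was left out. Precision is limited by a median of 21 fragments per site, by the limit for calling a peak, which hides weaker SOX2 binding, and by class sizes of 23 to 49 outside the single copy sites.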
